A study of Mus musculus with 4 samples.

Results

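Principal 7 is 1 of the 15 populations of principal cells in a single-cell RNA-Seq atlas of the mouse epididymis and vas deferens. It holds 365 of 8880 cells and 365 of 3956 principal cells, taken as the 1 deposited cell type name with that number of members. The caput, corpus and cauda of the epididymis and the vas deferens were each profiled as 1 library made from the pooled tissue of 4 adult FVB/NJ males aged 10 to 12 weeks, with 8 epididymides cut per pool and sperm washed out. No group was treated, all animals shared 1 strain, and the label of a population is the study's clustering of these same counts. With 1 library per region there is no replicate, so every interval given here covers counting error alone and differences between populations are descriptions of these libraries.

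Principal cells line the lumen of the epididymal duct and secrete much of the protein that coats sperm as they mature. Their secretory programme changes along the duct, and families of protease inhibitors, beta-defensins and lipocalins are switched on segment by segment. The corpus is the stretch between the caput, where sperm enter, and the cauda, where they are stored. The genes that mark principal 7 in the study are *Spint4* and *Spint5*, which encode Kunitz-type serine protease inhibitors, and *Npy*, which encodes the peptide neuropeptide Y.

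Of the 365 cells, 346 came from the corpus library (94.8%, exact 95% interval 92.0% to 96.8%), 18 from the cauda library, 1 from the vas deferens library and 0 from the caput library. In all, 319 of the 365 lay in 1 of the 21 broad clusters of the study, where they made up 68.0% of the 469 cells. Principal 7 was shallow. Its median cell held 458 UMIs (unique molecular identifiers, each counting 1 captured transcript) and 259 genes, against 787 UMIs in the median cell of principal 6, its neighbour in the corpus with 341 cells, and 641.5 UMIs in that of principal 8, the proximal cauda population with 516 cells. Depth was uneven among its members, from 227 to 14838 UMIs, and the 119 cells with at least 1000 UMIs carried 84.4% of the 643832 UMIs. The summed levels below therefore describe mostly those 119 cells. The ambient RNA correction of the authors had removed 22.9% of the UMIs of the 246 shallower cells and 2.51% of those of the 119 deeper cells. Doublet calling marked 13 of the 365 cells (3.56%) and no cell of principal 6, and all 13 were among the 119 deeper cells. A cell barcode that also occurred in another library was carried by 4 of the 365 members, and by 86 of all 8880 cells.

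The markers of principal cells were present in principal 7 and those of other cell types were low. *Cd52*, a surface glycoprotein passed to sperm, stood at 16583.5 UMIs per 1000000 UMIs of the population (UPM), *Adam7*, a sperm-associated membrane protein of the duct, at 1151 UPM and *Krt18*, a luminal keratin, at 1118 UPM. The 8 clear cell markers summed to 418 UPM in principal 7 against 20790.1 UPM in clear cells, with *Atp6v1g3*, a subunit of the proton pump, the most abundant at 208 UPM and *Slc4a9* at 0. The 8 basal cell markers summed to 255 UPM against 7194 UPM in basal cells, with *Sfn* the most abundant at 90.1 UPM. Muscle markers summed to 283 UPM (7 genes, *Mylk* the most abundant at 91.6 UPM), fibroblast markers to 73.0 UPM (6 genes, *Dcn* the most abundant at 45.0 UPM, *Pdgfra* at 0), immune markers to 54.4 UPM (10 genes, *Cd74* the most abundant at 34.2 UPM, *C1qa*, *Cd3e* and *Cd3g* at 0) and endothelial markers to 10.9 UPM (7 genes, *Emcn* the most abundant at 6.21 UPM, *Pecam1*, *Cdh5* and *Tie1* at 0). The sperm genes *Prm1* and *Prm2* were at 0, with an exact upper limit of 5.73 UPM for counting error. Without the called doublets the clear cell sum was 170 UPM. The part of clear cell RNA in the results below was not tested.

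*Spint4* had 12000.0 UPM in principal 7 (95% interval 11733.9 to 12271), from 7726 UMIs, and 7248 UPM from 3933 UMIs without the 13 called doublets. Principal 6 followed with 698 UPM. Principal 5, drawn from the corpus and caput libraries, had 516 UPM and principal 4 had 322 UPM, and the intervals of these 4 did not overlap. The intervals leave out the uneven spread of *Spint4* over cells. A *Spint4* UMI was seen in 12 of the 341 cells of principal 6 and in 19 of the 239 of principal 5. In principal 4 it was seen in 2 of 40 deeper cells, thinned as described below. The order of principal 6, principal 5 and principal 4 thus rests on few cells. Principal 11 had 52.5 UPM and the other 10 principal populations at most 20.1 UPM, with no UMI in principal 8, 12, 14 and 15. *Spint5* had 6581 UPM (6384 to 6782), followed by principal 6 (911 UPM), principal 4 (496 UPM) and principal 5 (367 UPM), where the intervals of the last pair overlapped. *Npy* ran the other way between the corpus populations, with 3151 UPM in principal 7 (3016 to 3292) below 4444 UPM in principal 6 (4246 to 4649). Principal 8 had 465 UPM of *Npy*. The ratio of principal 7 to principal 6 was thus 17.2 for *Spint4* (15.3 to 19.4), 7.22 for *Spint5* (6.51 to 8.03) and 0.709 for *Npy* (0.666 to 0.755). Without the called doublets *Spint5* had 4417 UPM and *Npy* 3621 UPM in principal 7, and the ratios were 10.4, 4.85 and 0.815.

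**Figure D1:**
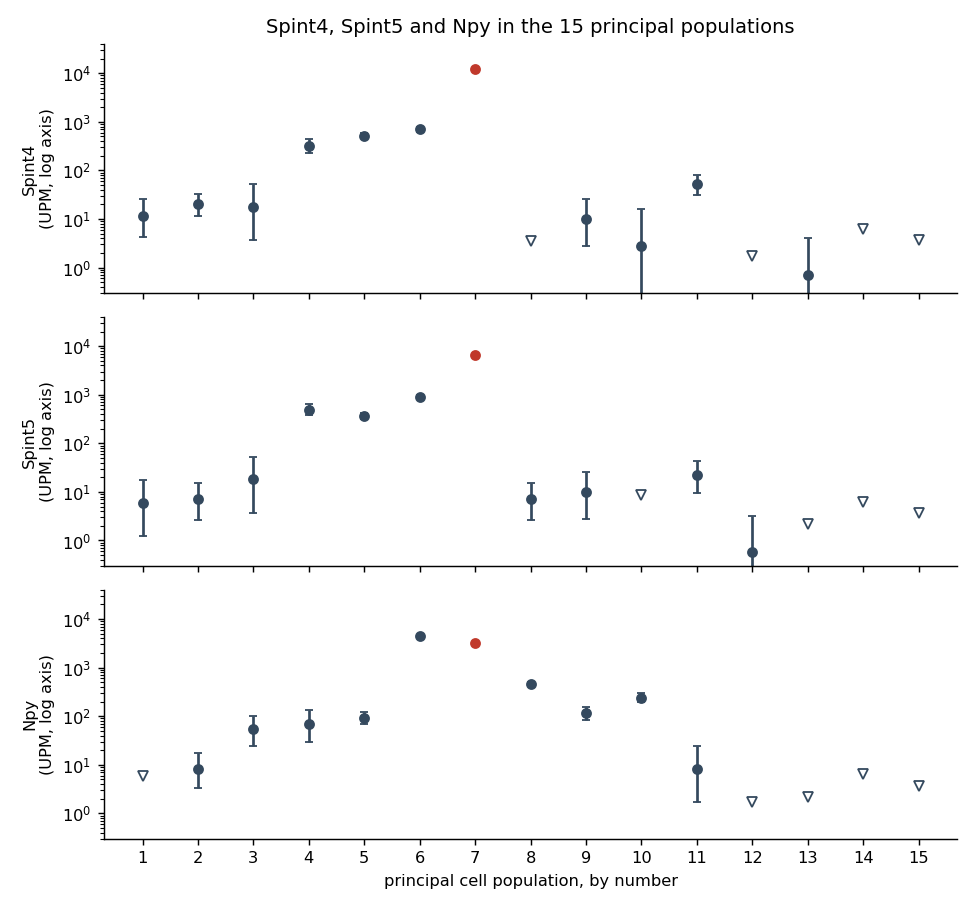
Levels of *Spint4*, *Spint5* and *Npy* (UPM, log axis) in the 15 principal populations, with exact 95% Poisson bars for counting error and principal 7 in red. Open triangles stand at the level of 3 UMIs for populations with no UMI of the gene. *Spint4* and *Spint5* peak in principal 7 at 12000.0 and 6581 UPM, while *Npy* peaks in principal 6 at 4444 UPM.

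All of this *Spint4* and *Spint5* came from the corpus library. The 346 corpus members had 12884 UPM of *Spint4* and 7066 UPM of *Spint5*, whereas the 18 cauda members had no UMI of either, which allows at most 85.7 UPM. *Npy* was seen in both, at 3132 UPM in the corpus members and 4313 UPM (3653 to 5058) in the cauda members. The cauda members also had no *Lcn5*, against 3265 UPM in the corpus members, and they had 9740 UPM of *Ptgds*, the lipocalin-type prostaglandin D synthase, against 3741 UPM. They had less *Defb22*, 1914 UPM against 6871 UPM, and 1857 UPM of D730048I06Rik against 90.1 UPM. Library and region cannot be told apart here.

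Cell by cell, *Spint4* was not spread over principal 7. After each of the 119 cells with at least 1000 UMIs was thinned to 1000 UMIs drawn at random (246 shallower cells left out), 93 had no *Spint4* UMI, 2 had 1 to 4, 1 had 5 to 9 and 23 had 10 or more. The cells with 5 or more, called *Spint4*-high here, were 24 of the 119 (20.2%) and all came from the corpus. They ran from 8 to 154 UMIs with a median of 44.5, and the largest count among the other 95 cells was 3. These 24 cells held 93.7% of all *Spint4* UMIs of principal 7 and 89.6% of its *Spint5* UMIs, with 19.9% of its UMIs in total. The cut was chosen after these values were seen, and 1 cell lay between 5 and 9 UMIs. Among corpus members 23.4% had a *Spint4* UMI (26 of 111, exact 95% interval 15.9% to 32.4%), against 5.04% in principal 6 (2.05% to 10.1%) and 9.52% in principal 5 (4.66% to 16.8%). In corpus basal cells, which should lack the gene, it was 3.82% (2.15% to 6.22%), so the intervals of principal 5 and principal 6 both overlapped the background. Before thinning the shares were 15.9% at a median of 453.5 UMIs in the corpus members of principal 7 and 5.68% at a median of 5931 UMIs in the basal cells.

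Other markers divided the same cells. Each of the 24 *Spint4*-high cells had at least 10 *Spint5* UMIs per 1000, with a median of 34 and a maximum of 85, while the 95 *Spint4*-low cells had between 0 and 5 and 80 of them had none. *Lcn5*, a lipocalin that binds retinoids, was seen in 24 of the 24 (median 13) and in 7 of the 95. *Spink11*, a Kazal-type protease inhibitor, was seen in 24 of the 24 (median 9) and in 11 of the 95. *Npy* was the reverse, with a UMI in 6 of the 24 *Spint4*-high cells and in 84 of the 95 *Spint4*-low cells (median 4, maximum 14). *Defb22*, a beta-defensin of the sperm coat, had a UMI in 5 of the 24 and in 86 of the 95, *Bsph2*, a binder of sperm protein, in 3 and 79, and *Defb43* in 0 and 67. *Spink8*, the most abundant transcript of the population and also a Kazal-type inhibitor, was in all 24 and in 94 of the 95, with medians of 43 and 35. As a background, thinned corpus basal cells had an *Npy* UMI in 5.34%, a *Spint5* UMI in 3.56%, an *Lcn5* UMI in 8.40% and a *Spink8* UMI in 26.0%. *Spint4* and *Npy* were thus found mostly in separate cells of the population.

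**Figure D2:**
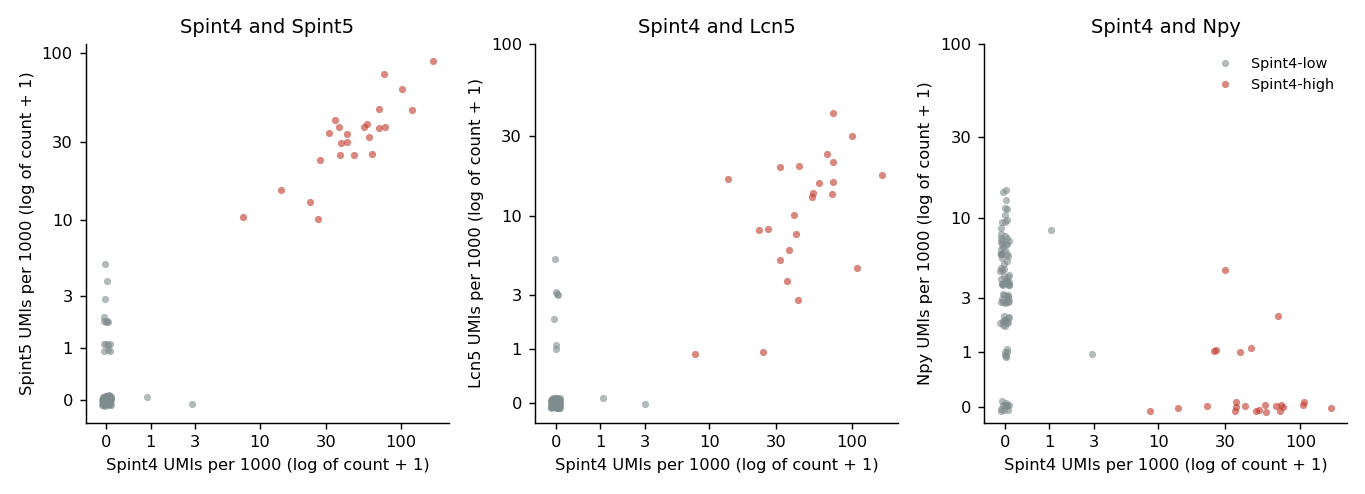
UMIs of *Spint5*, *Lcn5* and *Npy* against UMIs of *Spint4* in the 119 cells of principal 7 thinned to 1000 UMIs (both axes on a log scale of the count plus 1, points jittered). The 24 *Spint4*-high cells (red) lie to the right with *Spint5* and *Lcn5*, and 18 of them lie at 0 for *Npy*, where 84 of the 95 *Spint4*-low cells (grey) are above 0.

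The *Spint4*-high cells were deep, with a median of 4850.5 UMIs against 2500 UMIs in the *Spint4*-low cells, and 8 of the 24 were called doublets against 5 of the 95. Clear cell markers summed to 1154 UPM in them and to 209 UPM in the *Spint4*-low cells. In the 16 *Spint4*-high and 90 *Spint4*-low cells that were not called, *Lcn5* stood at 13786.2 and 117 UPM and *Npy* at 527 and 3993 UPM. *Spint4* stood at 60501.2 and 25.9 UPM, a difference that the choice of cells by *Spint4* fixes. *Atp6v1g3*, by contrast, had 0 UMIs in those 16 *Spint4*-high cells, and in all 24 it stood at 710 UPM. Of the 24, 21 lay in the broad cluster that held most of principal 7. Outside principal 7, 8 other thinned cells of the series reached 5 *Spint4* UMIs, of 5703 thinned in all: 3 in principal 5, 2 in principal 6, 2 clear cells and 1 basal cell. Among the 246 members too shallow to be thinned, 28 (11.4%) had at least 2 *Spint4* UMIs at a rate of 5 per 1000 or more. An *Npy* UMI was seen in 17.9% of those 28 and in 45.4% of the other 218.

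*Spint4*-high and *Spint4*-low cells were compared over all genes. Of 903 genes with at least 50 UMIs on the higher side, 44 (4.87%) were at least 2-fold higher in the *Spint4*-high cells and 205 (22.7%) at least 2-fold lower, and the median log2 ratio over all 903 was -0.46. The *Spint4*-high cells held 128249 UMIs and the *Spint4*-low cells 415280. The minimum of 50 UMIs is therefore met at a lower UPM by genes lower in the *Spint4*-high cells, which favours lower counts. All levels here are sums over the 24 cells, and the 8 called doublets carried the larger part of the 128249 UMIs. Without called doublets 31 genes were higher and 266 lower, of which 26 and 152 were among the 44 and 205. The genes furthest above were, after *Spint4*, *Gm6792* with 6230 UPM against 19.3 UPM, *Spint5* with 29598.7 against 272 UPM, *Lcn5* with 11563 against 108 UPM and *Ap1s2*, a clathrin adaptor subunit, with 1014 against 9.63 UPM. *Defb30* had 4405 against 67.4 UPM, *Spink11* 8725 against 178 UPM and *Agt*, which encodes angiotensinogen, 795 against 16.9 UPM. *Crip1*, a small LIM domain protein, had 11025.4 against 542 UPM and *Clu*, the secreted chaperone clusterin, 2955 against 431 UPM. *Ddit3*, a transcription factor of the stress response, had 1138 against 275 UPM. The genes named here were also at least 2-fold higher without the called doublets, with *Gm6792* at 7780 against 20.8 UPM and *Ddit3* at 1142 against 278 UPM. Of 15 counted genes of the stress and early response list, 4 were higher and 2 lower.

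The genes furthest below in the *Spint4*-high cells were *Wfdc16* with 39.0 against 1541 UPM, *Defb43* with 62.4 against 2403 UPM, *Defb2* with 31.2 against 1168 UPM and *Gm17252* with 70.2 against 2331 UPM. *Ptgds* had 179 against 5269 UPM, *Ces5a*, a secreted carboxylesterase, 62.4 against 1476 UPM and *Aldh1a1*, which makes retinoic acid, 46.8 against 778 UPM. *Cd52* had 2300.2 against 19680.7 UPM and *Crisp1*, a cysteine-rich protein that binds to sperm, 8413 against 38183.9 UPM. Against the 4.87% higher and 22.7% lower of all counted genes, beta-defensins divided, with 5 of the 20 counted higher and 14 lower. Of 7 whey acidic protein (WFDC) inhibitors 0 were higher and 6 lower, and of 9 proteins that bind or coat sperm 1 was higher (*Clu*) and 6 lower. Of 8 Kunitz and Kazal inhibitors 3 were higher and 3 lower, where *Spint4*, which defined the split, is 1 of the higher. These genes were used in the study to cluster the cells, and the cells were split on 1 of them, so the ratios are a description.

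**Figure D3:**
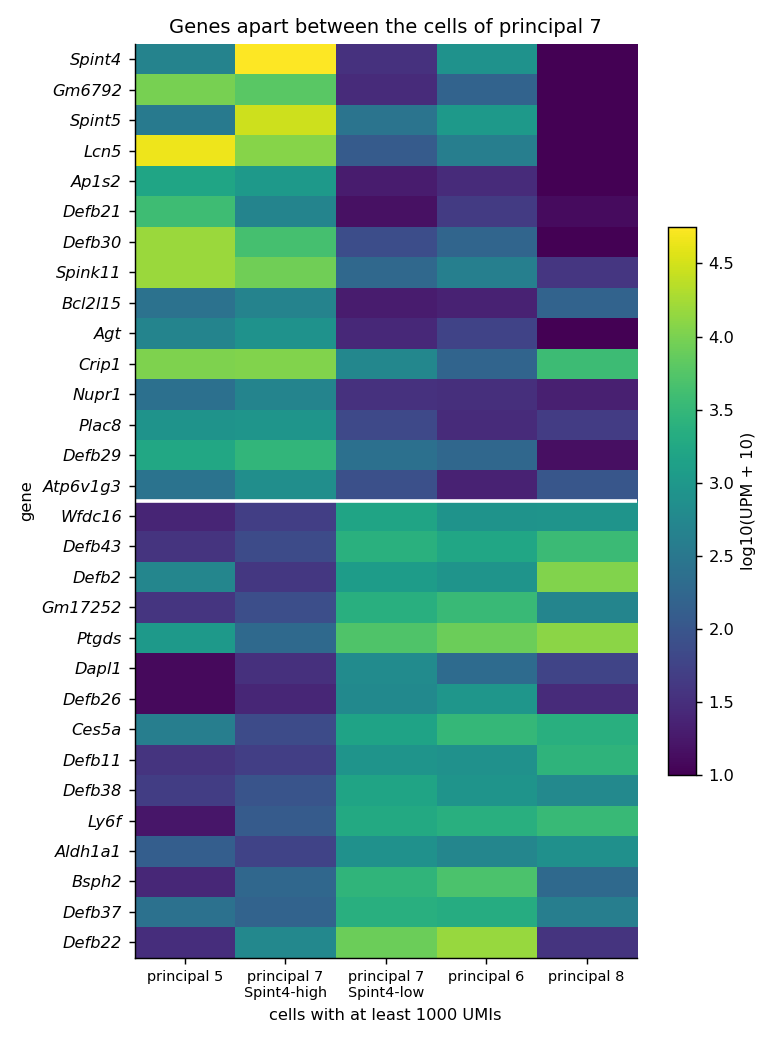
Levels as log10(UPM + 10) of the 15 genes furthest above (upper rows) and the 15 furthest below (lower rows) in *Spint4*-high against *Spint4*-low cells of principal 7, beside principal 5, 6 and 8, all in cells with at least 1000 UMIs. Called doublets are included. *Lcn5*, *Defb30*, *Spink11* and *Crip1* are high in principal 5 and in *Spint4*-high cells, while *Defb43*, *Ptgds* and *Bsph2* are high in *Spint4*-low cells and in principal 6, and *Defb43* and *Ptgds* are higher still in principal 8.

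Set beside the neighbouring populations, which the split did not use, genes above in the *Spint4*-high cells were often higher in principal 5 than in principal 6, and genes below were often higher in principal 6. Of the 44 genes above in *Spint4*-high cells, 30 (68.2%) were also at least 2-fold higher in principal 5 than in principal 6, against 24.4% of all 903 counted. Of the 205 below, 116 (56.6%) were at least 2-fold higher in principal 6 than in principal 5, again against 24.4%. In cells with at least 1000 UMIs, *Lcn5* stood at 44625.7 UPM in principal 5 and 388 UPM in principal 6, *Crip1* at 10791.2 and 153 UPM, and *Defb22* at 21.3 and 14884.9 UPM. *Spint4* and *Spint5* themselves were not high in principal 5, at 459 and 343 UPM in the same cells. Some genes below in the *Spint4*-high cells were higher in principal 8 than in principal 6, among them *Defb2* (11029.5 against 871 UPM over all cells) and *Defb43* (3446 against 1585 UPM).

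Some genes of this contrast lie near each other in the genome. *Spint3*, *Spint4* and *Spint5* sit within 1 run of Kunitz and WFDC inhibitor genes on chromosome 2 (GRCm38.p6, the assembly also called mm10), at chr2:164569695-164573456, chr2:164698501-164702448 and chr2:164715305-164718068. *Spint3*, at one end of the run, had 195 UPM in *Spint4*-high cells (126 to 288) and 1914 UPM in *Spint4*-low cells (1784 to 2052). *Spint4* and *Spint5*, at the other end, had 56437.1 and 29598.7 UPM in *Spint4*-high cells. Several WFDC genes between them had lower levels in the *Spint4*-high cells, with *Eppin*, an inhibitor carried on sperm, at 203 against 537 UPM, *Wfdc16* at 39.0 against 1541 UPM and *Wfdc10* at 3961 against 9671 UPM. *Wfdc13* differed less, at 2667 against 3386 UPM, and the intervals of *Wfdc6b*, *Wfdc8* and *Wfdc11*, with at most 2 UMIs in *Spint4*-high cells, overlapped. A run of beta-defensins on the same chromosome, chr2:152459055-152464620 for *Defb23* to chr2:152572743-152574944 for *Defb21*, went back and forth. *Defb23* (10830.5 against 1804 UPM), *Defb29* (2924 against 229 UPM) and *Defb21* (476 against 4.82 UPM, the latter from 2 UMIs) were higher in *Spint4*-high cells. *Defb22* (546 against 8048 UPM) and *Defb26* (15.6, from 2 UMIs, against 590 UPM), which lie between them, were lower.

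**Figure D4:**
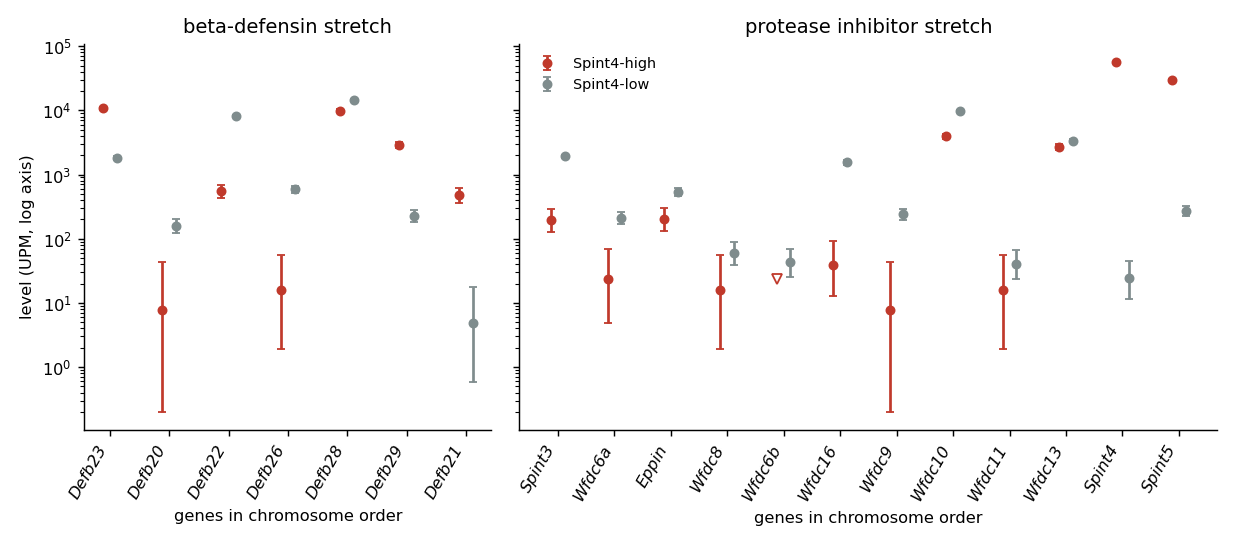
Levels (UPM, log axis) in *Spint4*-high (red) and *Spint4*-low (grey) cells of genes in chromosome order along a beta-defensin run (left) and a protease inhibitor run (right) of chromosome 2, with exact 95% Poisson bars. The open triangle marks the level of 3 UMIs for *Wfdc6b*, which had none in *Spint4*-high cells. Called doublets are included. *Spint3* and *Spint4*, in the same run, lie on opposite sides, at 195 against 1914 UPM and at 56437.1 against 24.1 UPM.

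The promoters of *Spint4*, *Spint5* and *Lcn5*, high in *Spint4*-high cells, and of *Spint3*, high in *Spint4*-low cells, are shown because they carry the split. Each runs 5′ to 3′ on the strand of its gene, from 250 bases before to 50 bases after the start that RefSeq gives (GRCm38.p6), and capitals mark the letters of the androgen response core AGAACA or of the TATA box TATAAA on either strand.
Spint4: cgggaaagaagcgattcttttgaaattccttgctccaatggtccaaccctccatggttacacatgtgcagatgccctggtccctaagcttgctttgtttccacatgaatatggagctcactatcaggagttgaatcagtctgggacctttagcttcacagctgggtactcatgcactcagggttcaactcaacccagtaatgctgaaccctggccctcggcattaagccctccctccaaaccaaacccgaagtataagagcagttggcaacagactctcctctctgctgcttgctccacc
Spint5: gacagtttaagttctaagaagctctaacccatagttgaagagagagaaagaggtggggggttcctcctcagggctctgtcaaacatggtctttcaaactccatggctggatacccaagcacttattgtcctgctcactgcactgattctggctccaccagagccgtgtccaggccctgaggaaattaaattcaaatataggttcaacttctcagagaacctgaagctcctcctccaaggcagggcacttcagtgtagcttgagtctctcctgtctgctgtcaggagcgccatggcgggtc
Lcn5: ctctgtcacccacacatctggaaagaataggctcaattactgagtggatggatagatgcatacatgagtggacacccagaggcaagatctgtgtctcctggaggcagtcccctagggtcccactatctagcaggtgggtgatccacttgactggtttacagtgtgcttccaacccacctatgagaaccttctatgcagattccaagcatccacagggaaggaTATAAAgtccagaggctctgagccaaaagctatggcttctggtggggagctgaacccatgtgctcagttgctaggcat
Spint3: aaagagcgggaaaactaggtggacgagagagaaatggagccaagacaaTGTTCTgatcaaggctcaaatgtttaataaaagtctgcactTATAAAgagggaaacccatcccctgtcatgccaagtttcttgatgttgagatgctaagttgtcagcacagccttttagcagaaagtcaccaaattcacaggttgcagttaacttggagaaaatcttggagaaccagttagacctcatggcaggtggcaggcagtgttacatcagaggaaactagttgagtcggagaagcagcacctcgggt
The windows are chr2:164698251-164698550 for *Spint4*, chr2:164715055-164715354 for *Spint5*, chr2:25657702-25658001 for *Lcn5* and chr2:164573407-164573706 for *Spint3*, the last on the minus strand. The window of *Lcn5* implies a start other than chr2:25657932, where its listed gene position begins, while those of *Spint4*, *Spint5* and *Spint3* match theirs. *Spint4* and *Spint5*, which were found in the same cells, held neither set of letters, *Lcn5* held 1 match to TATAAA, and *Spint3* held 1 match to each. Over the 27025 promoters of the table, 19.0% held AGAACA and 14.2% held TATAAA. Among the genes above in *Spint4*-high cells the shares were 12.8% and 20.5% (39 of 44 with a promoter), and among those below 22.4% and 9.09% (165 of 205), against 13.9% and 10.8% of the 705 counted genes with one. A match is a description of letters and no evidence of a bound site.

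Against all 14 other principal populations, 4 genes of principal 7 stood out. Among 1830 genes counted 50 times or more in principal 7, 167 (9.13%) had their highest level there and 4 (0.219%) exceeded each of the other 14 populations at least 2-fold. After *Spint4* and *Spint5* these were *Nrgn*, the calmodulin-binding protein neurogranin, at 183 UPM (3.00 times principal 6, 95% interval 1.95 to 4.78), and D11Wsu47e at 77.7 UPM (2.13 times principal 15, 1.33 to 3.47). *Nrgn* did not follow *Spint4*, with 179 UPM in *Spint4*-high and 209 UPM in *Spint4*-low cells. Against the 10 other populations of the epididymis alone the number was 8, adding *Gstm1*, *Ndufb7*, *Akap12* and *Mrps35*. The 10 most abundant genes carried 16.3% of the UMIs. They were *Spink8* (35007.6 UPM), *Crisp1* (33156.2 UPM), AY761185 (17079.0 UPM), *Cd52*, the beta-defensin *Defb28* (13893.4 UPM), *Spint4*, *Rpl41* (10218.5 UPM), the membrane protein gene *Itm2b* (8956 UPM), *Wfdc10* (8355 UPM) and *Npc2*, a secreted cholesterol-binding protein (7536 UPM). Among these only *Spint4* was highest in principal 7. Without the called doublets *Spint4* was no longer among the 10, with 7248 UPM below *Cuzd1* (7921 UPM) and *Defb22* (7453 UPM), and *Crisp1* (36753.9 UPM) stood above *Spink8* (36271.1 UPM). In the thinned corpus cells *Defb28*, *Itm2b* and *Spink8* each had a UMI in 99.1%, *Crisp1* in 98.2% and *Rpl41* in 96.4%.

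Principal 7 and principal 6 come from the same stretch of duct and mostly from the same library, so their contrast is mostly one within the corpus library, while position within the corpus was not held fixed. Of 1888 genes counted, 379 (20.1%) were at least 2-fold higher in principal 7 and 267 (14.1%) at least 2-fold lower, with a median log2 ratio of 0.22. The balance of the counts turned with the minimum level, to 570 higher and 683 lower at 20 UMIs and 826 and 1840 at 3 UMIs. The genes furthest above were *Cd24a*, a surface glycoprotein (261 against 11.7 UPM, 22.2-fold), *Spint4*, *Crip1* (2766 against 174 UPM, 15.9-fold), *Plac8* (258 against 21.1 UPM), *Tmsb10*, an actin-binding thymosin (191 against 18.8 UPM), *Atp6v1g3* (208 against 21.1 UPM), *Gadd45b* (123 against 14.1 UPM), *Btf3* (315 against 39.9 UPM), *Gm6792* (1448 against 186 UPM) and *Rbm3*, an RNA-binding protein (438 against 56.4 UPM, 7.77-fold). Without the called doublets *Cd24a* was 10.2-fold, *Spint4* 10.4-fold, *Crip1* 9.37-fold, *Plac8* 8.98-fold, *Tmsb10* 7.55-fold, *Gadd45b* 6.28-fold, *Gm6792* 5.72-fold and *Atp6v1g3* 1.66-fold higher. When the 24 *Spint4*-high cells were left out, *Cd24a* was 14.2-fold, *Rbm3* 8.09-fold, *Tmsb10* 7.64-fold and *Btf3* 7.14-fold higher than in principal 6. In that setting *Gadd45b* was 5.09-fold, *Plac8* 4.77-fold, *Crip1* 4.10-fold and *Atp6v1g3* 3.95-fold higher. *Gm6792* and *Spint4* fell to 1.39-fold and 1.36-fold.

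Genes of principal 6 that were low in principal 7 included an endocytic receptor and lysosomal enzymes. *Gdf15*, a cytokine of the TGF-beta family, had 40.4 against 289 UPM and *Lrp2*, the endocytic receptor megalin, 106 against 446 UPM. The lysosomal mannosidases *Manba* and *Man2b1* had 20.2 against 120 UPM and 273 against 1109 UPM. *Sulf2*, *Gbf1*, *Trappc10* and *Slc7a11* had 45.0, 26.4, 28.0 and 34.2 UPM, each between 4.06 and 4.85 times lower than in principal 6. These 8 genes held their direction without the called doublets and without the *Spint4*-high cells, at between 0.123 and 0.301 of the level of principal 6.

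Ribosomal protein genes made up 15.1% of the UMIs of principal 7 and 5.26% of those of principal 6. A high share was not particular to principal 7, with 16.1% in principal 5, 19.4% in principal 8 and 21.7% in principal 9, and principal 4 (2.21%) and principal 10 (5.22%) were low like principal 6. Of 79 counted, 74 were at least 2-fold higher in principal 7 and 0 lower, with a median log2 ratio of 1.60 against 0.22 over all counted genes. *Rpl41* had 10218.5 against 3572 UPM, *Rps26* 4560 against 1722 UPM and *Rpl10* 4054 against 1261 UPM, and *Rpl35* was furthest above (7.04-fold, 5.86 to 8.53) and *Rps2* least (1.39-fold). Per cell, the share ran from a lower quartile of 8.87% through a median of 12.8% to an upper quartile of 16.3% in principal 7 and through 2.49%, 4.42% and 6.70% in principal 6, so the middle ranges did not overlap. The share was 13.8% in the median deeper cell of principal 7 and 12.5% in the median shallower cell, and 4.95% and 3.96% in those of principal 6. It was 10.6% in the median *Spint4*-high cell and 15.2% in the median *Spint4*-low cell. Nuclear genes of the respiratory chain and ATP synthase had 39 of 69 at least 2-fold higher and 0 at least 2-fold lower, with a median log2 ratio of 1.03. *Cox6c* (3108 against 1552 UPM) and *Atp5g2* (362 against 54.0 UPM) were among the 39, and *Cox4i1*, the most abundant, had 4378 against 2943 UPM. *Cyc1*, cytochrome c1, had the smallest ratio of the list at 0.561 (0.409 to 0.766).

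**Figure D5:**
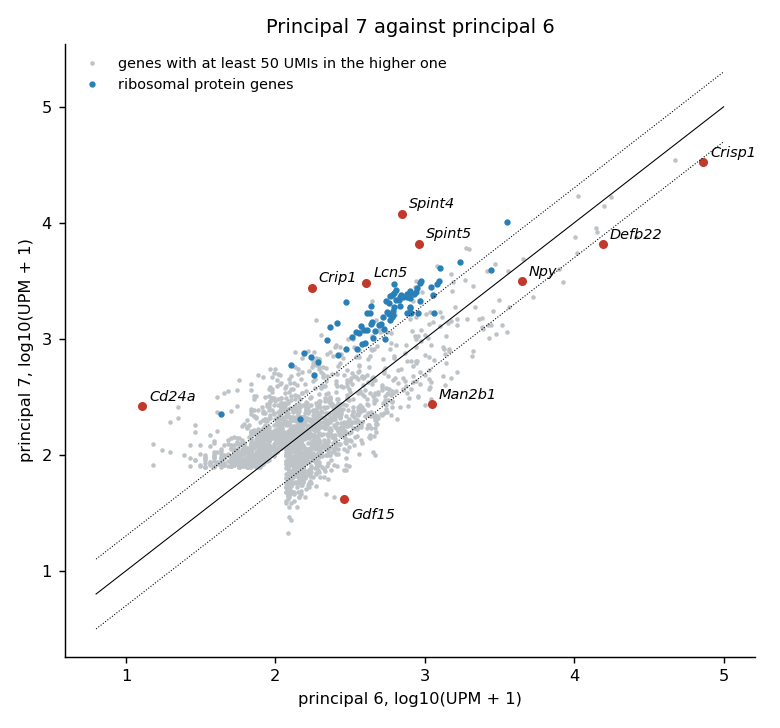
Level of each counted gene in principal 7 (y axis) against principal 6 (x axis), as log10(UPM + 1), with lines of equality (solid) and of 2-fold difference (dotted). Ribosomal protein genes (blue) lie above equality, 74 of 79 past the 2-fold line, and named genes (red) include *Spint4* at 12000.0 against 698 UPM.

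Of 33 counted genes of folding and export in the endoplasmic reticulum, 4 were at least 2-fold higher in principal 7 and 8 at least 2-fold lower, with a median log2 ratio of -0.82, and most passed in neither direction. The shares to read this and the next counts against are the 20.1% higher and 14.1% lower of all counted genes, which the counts of beta-defensins are near. *Hspa5*, the main chaperone of that compartment, had 3110 against 8366 UPM, *Hsp90b1* 1322 against 2649 UPM, *Calr* 1305 against 2783 UPM and *Ero1l*, an oxidase for disulphide bonds, 38.8 against 117 UPM, whereas *Sec61b*, a subunit of the translocation channel, had 489 against 75.2 UPM. Of 9 counted genes for proteins that bind or coat sperm, 0 were higher and 5 lower, with *Cuzd1* at 7471 against 25708.4 UPM and *Crisp1* at 33156.2 against 72434.8 UPM. Of 25 glutathione and antioxidant genes, 7 were higher and 0 lower, *Txn1*, thioredoxin, among them at 573 against 134 UPM. *Gpx3*, the most abundant, had 3822 against 2591 UPM. Of 20 beta-defensins 4 were higher and 2 lower, with *Defb30* at 1067 against 200 UPM and *Defb22* at 6503 against 15491.7 UPM. *Defb30* was 5.34-fold higher, with 759 UPM left without the called doublets. The *Spint4*-high cells held 565 of its 687 UMIs, 375 of the 508 of *Defb29* and 61 of the 78 of *Defb21*. Of 9 Kunitz and Kazal inhibitors 4 were higher and 0 lower, and 3 of the 4 were *Spint4*, *Spint5* and *Spink11*, whose UMIs lay mostly in the *Spint4*-high cells (1119 of 1373 for *Spink11*). None of the 8 counted WFDC inhibitors passed 2-fold in either direction, and their ratios ran from 0.580 for *Wfdc6a* to 1.73 for *Wfdc13*.

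The genes that differed between these populations also differed in size. The median genomic span was 5.38 kb for those higher in principal 7, 38.5 kb for those lower and 13.9 kb for all counted (positions known for 93.1%, 97.0% and 95.6%). Without ribosomal protein genes the median of the higher genes was 6.63 kb, against 15.0 kb of all counted. The *Spint4* split showed less of this, at 7.42 kb for genes above, 9.93 kb for genes below and 8.56 kb for all counted. The part of gene span, read depth or RNA quality in the contrast with principal 6 was not tested.

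The cells that were *Spint4*-low still differed from principal 6. In cells with at least 1000 UMIs, 333 of 1273 counted genes (26.2%) were at least 2-fold higher and 233 (18.3%) at least 2-fold lower in the *Spint4*-low cells, and ribosomal proteins took 16.8% of their UMIs against 5.42% in principal 6. *Npy* was close, at 3800 UPM (3615 to 3992) against 4567 UPM, and so was *Spint3*, at 1914 against 1686 UPM. *Spint4* had 24.1 against 816 UPM and *Spint5* 272 against 1023 UPM, values that the selection of cells low in *Spint4* bears on, since principal 6 was not selected in the same way.

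Toward the cauda, principal 7 was set against principal 8. Of 2175 counted genes, 285 (13.1%) were at least 2-fold higher in principal 7 and 122 (5.61%) at least 2-fold lower. *Spint4* was at least 3372-fold higher, *Lcn5* at least 854-fold, *Gm6792* at least 407-fold and *Defb30* at least 299.8-fold, each against a population with no UMI that was set to 3 UMIs, and *Spint5* had 6581 against 7.12 UPM. Furthest below were *Spink14* (6.21, from 4 UMIs, against 1993 UPM), D730048I06Rik (185 against 6998 UPM), the crystallin gene *Cryba4* (4.66, from 3 UMIs, against 142 UPM), *Mmp7*, a matrix metalloproteinase (7.77 against 223 UPM), and *Serpine2*, a serpin (17.1 against 489 UPM). The principal 8 cells came mostly from the cauda library (486 of 516), so region and library cannot be told apart in this contrast.

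Genes listed as marks of position along the duct differed widely in level. Of those listed for segments 5 to 6, *Lcn5* had 3041 UPM, *Rnase9* 1513 UPM and *Plac8* 258 UPM. *Lcn5* was 7.53-fold and *Plac8* 12.2-fold higher than in principal 6 (5.75-fold and 8.98-fold without the called doublets). *Rnase9* went the other way, at 0.679 of the level of principal 6 without the called doublets. When the *Spint4*-high cells were left out, the ratios were 2.28 for *Lcn5*, 4.77 for *Plac8* and 0.638 for *Rnase9*. Of those for segments 8 to 10, *Crisp1* and *Ptgds* had 33156.2 and 4013 UPM, *Gpx3* 3822 UPM, *Spink10* 2173 UPM, *Hint1* 1191 UPM and *Gstm2* 541 UPM, and *Klk1b27* had 2 UMIs. Of the caput genes, *Adam28* and *Rnase10* were at 0, *Cst11*, *Lcn8*, *Spag11b* and *Gpx5* had 1 or 2 UMIs, *Defb15* 7.77 UPM, *Lcn2* 51.3 UPM, *Defb21* 121 UPM and *Mfge8* 208 UPM. Of the vas deferens genes, *Akr1b7* had 180 UPM, *Fxyd4* 40.4 UPM, *Abcg2* 15.5 UPM, *Aqp2* 10.9 UPM and *Ptgr1* 7.77 UPM, *Crygc* had 2 UMIs and *Crygb* was at 0. Most of this came from the 19 cells of the cauda and vas deferens libraries, since the 346 corpus members had 45.0 UPM of *Akr1b7*, 3.34 UPM each of *Fxyd4* and *Abcg2* and no *Aqp2*. The genes of segments 5 to 6 summed to 13895 UPM in *Spint4*-high and 1647 UPM in *Spint4*-low cells, and those of segments 8 to 10 to 13770.1 and 52022.7 UPM.

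Variation from cell to cell within the corpus members was led by the genes of the split. Over the 259 genes with a mean of at least 0.5 UMIs in the 111 thinned corpus cells, the median of variance over mean was 1.65, where counting alone would give a value near 1. *Spint4* had 62.3, *Spint5* 36.3, *Lcn5* 16.7, *Crisp1* 14.6 and AY761185 13.7, and *Gm6792* followed with 13.6. These genes varied in principal 6 as well, with 89.3 for *Spint4*, 36.8 for *Spint5*, 14.8 for *Lcn5* and 25.1 for *Crisp1* in its 135 thinned corpus cells. The value of *Spint4* there rests on very few cells. Of all 139 thinned cells of principal 6, 7 had a *Spint4* UMI and 2 reached 5. In the 87 *Spint4*-low corpus cells the ranking was led by *Crisp1* (9.90), *Spink8* (6.78), *Ptgds* (6.57) and AY761185 (6.31), with the metallothionein gene *Mt1* at 4.95. *Npy* was modest, at 3.02 over all corpus cells and 2.27 in the *Spint4*-low ones.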

How the data were processed

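The deposited table holds UMI counts for 16892 genes in 8880 cells. Per the labels and methods, the authors made 10x Genomics 3′ libraries, aligned reads to mm10 with HISAT2 version 2.0.4 and RefSeq genes, counted UMIs, kept barcodes by UMI number and subtracted ambient RNA. The deposited count of UMIs per cell before that step gave the share removed. The deposited scran size factors, a score per cell, were not used in any level. Cell types are the authors' annotation, numbered here as in the study by cell number. Levels are summed UMIs per 1000000 (UPM) with exact 95% Poisson intervals, ratios have exact conditional intervals and shares exact Clopper-Pearson intervals, all for counting error only. UMIs tag 3′ ends, so levels carry no length term. A gene was counted at 50 or more UMIs on the higher side and 2-fold, with 0 UMIs raised to a floor of 3. No test was possible with 1 library per region. Cells were thinned to 1000 UMIs with a fixed seed. Doublets were scored per library against simulated doublets (30 components, 30 neighbours) and kept, 178 cells being called. Of simulated doublets of unlike types 54.5% were found in the corpus library. Principal 7 holds 643832 UMIs, so 3 UMIs stand for 4.66 UPM, and the 4 libraries together hold 26639701. Genes named were the 3 markers, the 10 most abundant, the leading genes, the 10 at each end of the ratio to principal 6 and 5 to principal 8, the highest and extreme members of each list, the 5 most variable and most widespread, and all segment genes. The 20 at each end of the *Spint4* split, and others in that split and on chromosome 2, were chosen after their values were seen. Members and gene lists were chosen with earlier results of these data known. Positions and promoters are RefSeq (15927 of 16892 symbols matched). Some genes that the naming rule selects are not reported here. The comparison was tested on simulated Poisson counts with known fold changes, which lack the uneven spread over cells of genes such as *Spint4*. Software was matplotlib 3.10.9, scikit-learn 1.9.0, pandas 2.3.3, scipy 1.17.1, numpy 2.4.6 and Python 3.11.15.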

Additional observations from a re-analysis of the deposited data

How the results depend on the processing

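No paired analysis was possible because each region has 1 library and the labels give no replicate numbers. Of 86 recomputed values, 57 stayed within the interval or within 1.5 times the count, and among the 86 no ratio of the 3 markers changed direction. Leaving out the *Spint4*-high cells, which is not among the 86, turned the ratio of *Spint5* to principal 6 to 0.939. In that setting, which selects on *Spint4*, the ratio was 1.36 for *Spint4* and 0.862 for *Npy*. The lower genes outnumbered the higher ones against principal 6 at 20 and at 3 UMIs. The ratio of principal 7 to principal 6 became, for *Spint4*, 10.4 without called doublets and 9.33 as a mean over cells, for *Spint5* 4.85 and 5.00, and for *Npy* 0.815 and 0.826. *Npy* was 0.658 in cells with at least 1000 UMIs and 0.758 with ribosomal and the 10 most abundant genes out of the totals, which gave 7 leading genes. The comparison with 10 epididymal populations gave 8. At 4-fold, 64 genes were higher and 11 lower than in principal 6 (37 and 0 of those in lists, against 142 and 24 at 2-fold), 76 and 53 against principal 8, and 2 led. With 20 UMIs the counts were 570 and 683, and 763 and 261; with 3 UMIs 826 and 1840 (44 listed genes lower), and 2008 and 628. Without thinning, 15.9% of corpus members had a *Spint4* UMI and 55.2% an *Npy* UMI, against 23.4% and 76.6%. Markers of 6 other cell types summed to 1093 UPM, and to 702 without called doublets. The *Spint4* split, examined after the data were seen with cuts of 2 and 10 UMIs, without doublets, in the corpus alone and in the main cluster, gave 31 to 43 genes higher and 177 to 266 lower. Of the 44 and 205 genes, 26 and 152 recurred among the 31 and 266 without doublets. Depth limits genes under about 50 UMIs, and the shallow cells most.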

Other observations

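Some further gene groups of principal 7 were counted against principal 6 with the same 2-fold rule, by which 20.1% of all counted genes were higher and 14.1% lower. Of 6 genes of water, ion and proton transport, 0 were higher and 3 lower, with *Car4*, a carbonic anhydrase, at 491 against 996 UPM and *Aqp9*, a water and solute channel, at 45.0 against 132 UPM. Of 5 genes of claudins and junctions, 0 were higher and 2 lower, *Cldn23* among them at 120 against 336 UPM. *Cldn3*, at 822 against 1346 UPM, did not pass 2-fold. Of 8 genes for luminal carnitine, inositol and polyamines, 1 was higher and 1 lower. *Oaz1*, which restrains polyamine synthesis, had 468 against 82.2 UPM and *Slc22a5*, a carnitine transporter, 63.7 against 211 UPM. Of 8 prostaglandin genes 2 were higher and 0 lower, and *Ptgds* had 4013 against 7877 UPM. *Akr1b7*, a member of the list, had 180 UPM, and 45.0 UPM in the corpus members alone.

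Other groups held few counted members. Among 7 counted transcription factors of the duct, none passed 2-fold, with *Klf4* at 349 against 489 UPM and *Hoxb8* at 93.2 against 51.7 UPM. No cell cycle or steroid response gene was counted, and *Pcna*, the replication clamp, had 66.8 UPM and *Fkbp5*, a glucocorticoid and androgen target, 83.9 UPM. Besides *Npy*, the neuropeptide list had *Oprm1*, the mu opioid receptor, at 63.7 UPM (45.7 to 86.4) and *Dpp4*, a peptidase that trims neuropeptide Y, at 55.9 against 172 UPM. *Cst3*, the cystatin C gene, had 1373 against 1428 UPM, *Serpina1f* 741 against 1362 UPM and *Rnase12* 1311 against 1649 UPM. In the *Spint4*-high cells *Lcn12* had 7.80 UPM (1 UMI) against 96.3 UPM in the *Spint4*-low cells, opposite to *Lcn5*. The *Spint4*-high count in the corpus was 21.6% of 111 thinned members and 20.1% when cells were thinned to 500 UMIs. It was 16.2% with the called doublets left out and 15.0% without thinning.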
